A study of Homo sapiens with 18 samples.

Results

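Knockout of KDSR in HUH7, a human liver cancer line from a hepatocellular carcinoma, was followed through 6 RNA sequencing libraries: 3 labelled KDSR KO (HUH7 cells given lentiCRISPR v2 with the guide KDSR g1) and 3 labelled CTRL (HUH7 cells given the same vector with a guide that targets nothing). Both groups were selected in puromycin for 5 days and collected on day 8 after infection, so the vector, Cas9 and the drug are shared. The genes described were those whose mean TPM over the 6 libraries reached 1, 16104 of the 27166 genes in the table. TPM is a gene's share of the measured transcripts after correction for gene length. The series also holds KDSR KO and CTRL libraries of the colon line DLD1, collected on day 8, and of the lung line NCIH838, collected on day 10, with 3 libraries per group and 18 in all. The design text calls the 3 libraries of a group biological triplicates. The labels name a single guide and no clone, and the share of edited cells was not measured. In a mixed culture, fewer cells of a kind and less RNA per cell cannot be told apart.

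KDSR encodes 3-ketodihydrosphingosine reductase, an enzyme on the cytosolic face of the endoplasmic reticulum. Serine palmitoyltransferase joins serine and palmitoyl-CoA into 3-ketodihydrosphingosine, KDSR reduces it to dihydrosphingosine, ceramide synthases add a fatty acid, and the desaturase DEGS1 then forms ceramide. Hepatocytes make much ceramide and sphingomyelin for membranes, bile and lipoproteins. Cells meet disturbed membranes or misfolded proteins with several gene programmes: HSF1 drives cytosolic chaperones, ATF6 and XBP1 drive chaperones of the endoplasmic reticulum, ATF4 and CHOP drive amino acid and stress genes, and NRF2 drives antioxidant enzymes.

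The HUH7 libraries held 19423417 to 20385767 reads. Hepatocyte markers summed to 18993 to 20707 TPM per library, with 11 of 11 markers in the table and none at 0, against 146 to 158 TPM for intestinal and 16.4 to 19.7 TPM for lung epithelial markers. Markers of blood and immune cells summed to 167 to 229 TPM and those of fibroblasts and endothelium to 467 to 612 TPM. CTRL replicate 1 stood apart. Its median absolute log2 difference from the 5 other libraries was 0.188 to 0.221, against 0.067 to 0.091 among those 5. Chromosome M took 12.5% of its TPM, while the KDSR KO libraries had 10.6%, 8.97% and 9.26% and the other CTRL libraries had 7.07% and 8.34%. Its levels also followed the GC content of the transcripts, with a median log2 deviation of -0.31 in the lowest of 10 groups of genes by GC and 0.17 in the highest. Values without CTRL replicate 1 are given for many of the results below.

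**Figure D1:**
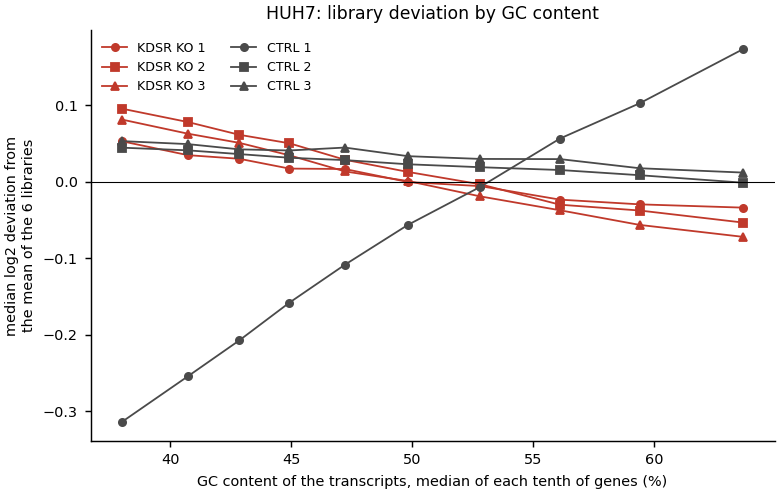
Median log2 deviation of each HUH7 library from the mean of the 6 libraries (vertical axis) in 10 groups of genes ordered by the GC content of their transcripts in percent (horizontal axis), with KDSR KO libraries in red and CTRL libraries in grey. CTRL replicate 1 runs from -0.31 at the lowest GC content to 0.17 at the highest, while the other 5 libraries stay within 0.10 of 0.

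KDSR transcripts were lower in every KDSR KO library than in every CTRL library. The values were 3.67, 4.01 and 3.21 TPM in KDSR KO, against 5.08, 6.54 and 5.74 TPM in CTRL, and the groups did not overlap. The mean was 37.2% lower (3.63 ± 0.401 against 5.79 ± 0.730 TPM, SD, n = 3 each), and the exact two-sided permutation p was 0.1, the smallest that 3 libraries against 3 can give. The log2 difference of KDSR, KDSR KO minus CTRL, was -0.55 (95% interval -0.75 to -0.35; limma, adjusted p = 0.114), and -0.63 without CTRL replicate 1. It passed the threshold of 0.05 under median ratio scaling (adjusted p = 0.0366), under quantile normalization (0.0435) and with the GC trend removed (0.0111), and in no other alternative run. These values rest on 156 to 190 reads in KDSR KO and 245 to 306 reads in CTRL. A transcript with an edited reading frame is still counted, so the level does not measure the loss of the enzyme. KDSR lies on chromosome 18 from 63327726 to 63367510 (hg38, minus strand).

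The other genes of the same pathway stayed close to their CTRL levels. Of 14 genes of de novo sphingolipid synthesis tested, the groups did not overlap in 3: KDSR was lower, and SPTLC1 and ORMDL1 were higher. Over all tested genes, all 3 KDSR KO values lay above all 3 CTRL values in 6.81% and below them in 10.1%. SPTLC1, a subunit of serine palmitoyltransferase, was at 43.9, 44.5 and 45.8 TPM in KDSR KO and 37.0, 42.6 and 42.5 TPM in CTRL, with CTRL replicate 1 lowest. Its log2 difference was 0.14 (-0.02 to 0.30), and 0.07 without that library. ORMDL1, a membrane protein that restrains serine palmitoyltransferase, was at 33.99, 36.7 and 34.7 TPM in KDSR KO and 24.3, 32.98 and 33.5 TPM in CTRL, where again CTRL replicate 1 was lowest. The difference in ORMDL1 was 0.22 with all libraries and 0.08 without that one. SPTLC2, the catalytic partner of SPTLC1, differed by 0.15 (-0.02 to 0.32), DEGS1 by 0.09 (-0.11 to 0.28), and the ceramide synthase CERS2 by -0.06 (-0.22 to 0.11), with overlapping groups in each. These were 0.05, -0.00 and -0.04 without CTRL replicate 1. In 12 of the 14 genes the 95% interval lay within 0.5 of 0 on the log2 scale, as it did in 77.1% of all genes tested. KDSR and ORMDL1 were the others.

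Among genes that use or break down ceramide, 34 were tested. Of these, 3 (8.82%) lay wholly higher and 5 (14.7%) wholly lower, against 6.81% and 10.1% of all genes. Without CTRL replicate 1 the counts were 3 and 8, against 8.88% and 17.4% of all genes. UGCG, which makes glucosylceramide from ceramide, was higher, at 57.5, 61.8 and 55.5 TPM in KDSR KO and 36.9, 47.6 and 53.9 TPM in CTRL. Only a narrow gap separated KDSR KO replicate 3 from CTRL replicate 3, and the UGCG difference of 0.35 (0.13 to 0.56) became 0.20 without CTRL replicate 1. SMPD1, the acid sphingomyelinase of lysosomes, was at 63.3, 59.0 and 60.0 TPM in KDSR KO and 69.0, 67.1 and 66.7 TPM in CTRL, a log2 difference of -0.15 (-0.27 to -0.03).

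Across all genes the response in HUH7 was small. By limma on log2(TPM + 1), with the spread of each gene taken over all 18 libraries, 0 of 16104 genes (0%) had an adjusted p under 0.05, and the smallest adjusted p was 0.0677. At an unadjusted p under 0.05 there were 1806 genes, 11.2% of those tested, of which 819 were higher (5.09%) and 987 lower (6.13%) in KDSR KO. Limma voom on read counts recovered from TPM also called 0 genes. Over the other alternatives 0 to 9 genes were called, 9 with no filter on low values. The groups did not overlap in 2722 genes (16.9%), 1096 higher and 1626 lower. That split moved with the scaling of the libraries: it was 1355 higher (8.41%) and 1562 lower (9.7%) under median ratio scaling, and 1677 higher (10.4%) and 1226 lower (7.63%) when mitochondrially encoded genes were left out. It also moved with CTRL replicate 1, to 1430 higher (8.88%) and 2797 lower (17.4%) without it, where 3 libraries meet only 2. In the lowest of the 10 GC groups 15.7% lay wholly higher, and in the highest 25.0% lay wholly lower; the part of GC content in these counts was not tested beyond its removal, which left 1148 higher (7.13%) and 1220 lower (7.58%). Of the genes with an unadjusted p under 0.05, 644 had one on the same side without CTRL replicate 1, 4% of all tested.

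**Figure D2:**
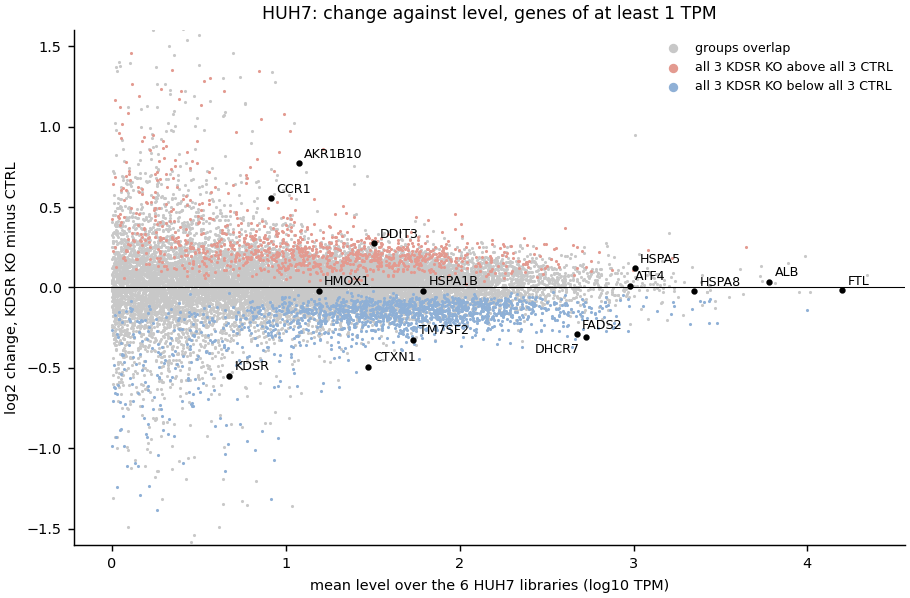
Log2 change, KDSR KO minus CTRL (vertical axis), against the mean level over the 6 HUH7 libraries in log10 TPM (horizontal axis), for genes of at least 1 TPM; red and blue mark genes whose groups do not overlap, and 31 genes lie outside the plotted range. Wide changes are found among genes of low level, while KDSR at -0.55 and AKR1B10 at 0.77 stand at the edge of genes of their level.

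AKR1B10, an aldo-keto reductase that reduces aldehydes and retinal and is known as an NRF2 target and a liver tumour marker, had the smallest unadjusted p among genes of at least 5 TPM whose names are not of clones or pseudogenes. It was at 16.8, 13.7 and 15.1 TPM in KDSR KO and 7.64, 7.76 and 10.1 TPM in CTRL. Every KDSR KO value was above every CTRL value, with 68 to 149 reads per library, some of which may be shared with its close paralogue AKR1B15. The log2 difference of AKR1B10 was 0.77 (0.52 to 1.03; limma, adjusted p = 0.0803), 0.71 without CTRL replicate 1 and 0.72 with the GC trend removed. It passed the threshold without CTRL replicate 3 (adjusted p = 0.0102), with no filter (0.0334) and with plain eBayes (0.0367), within a range of 0.0102 to 0.515 over all alternatives. AKR1B10 was also higher in KDSR KO in DLD1, by 1.91 (limma, adjusted p = 5.34e-08), and in NCIH838, by 0.65 (adjusted p = 0.000448). Its rise was thus not particular to the liver line. Other genes of small p in HUH7 were higher by less. F13B, a carrier subunit of coagulation factor XIII made in liver, was at 6.92, 6.84 and 7.60 TPM in KDSR KO and 3.796, 5.28 and 5.54 TPM in CTRL. UGT2A3, a glucuronosyltransferase that acts on bile acids, was at 19.3, 20.02 and 21.7 TPM in KDSR KO and 13.7, 15.3 and 17.6 TPM in CTRL. Their log2 differences were 0.48 and 0.38 with all libraries, and 0.34 and 0.30 without CTRL replicate 1. CCR1, a chemokine receptor, was at 8.35, 10.3 and 11.1 TPM in KDSR KO and 5.87, 7.14 and 6.18 TPM in CTRL, a difference of 0.56 (0.24 to 0.87) and 0.50 without that library. In all of these the 3 KDSR KO libraries were the 3 highest.

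Genes of small p that were lower in KDSR KO included regulators of RNA, circadian rhythm and signalling. PTPN18, a tyrosine phosphatase, was at 15.7, 14.7 and 14.3 TPM in KDSR KO and 19.2, 18.6 and 17.3 TPM in CTRL, a log2 difference of -0.28 (-0.41 to -0.16). RBPMS2, an RNA-binding protein, was at 39.8, 41.6 and 37.1 TPM in KDSR KO and 57.7, 50.1 and 48.1 TPM in CTRL, with the highest value in CTRL replicate 1. NPAS2, a partner of the circadian factor BMAL1, was at 24.4, 23.7 and 25.0 TPM in KDSR KO and 31.3, 29.8 and 27.7 TPM in CTRL. SF1, the splicing factor that binds the branch point, was at 208, 200 and 198 TPM in KDSR KO and 258, 238 and 234 TPM in CTRL. None of these groups overlapped. The log2 differences of RBPMS2, NPAS2 and SF1 were -0.38, -0.27 and -0.27, and -0.31, -0.23 and -0.23 without CTRL replicate 1. F8A1, which has near-identical copies on the X chromosome so that its reads may be divided among them, differed by -0.38 (-0.57 to -0.20). CTXN1, a small membrane protein and among the lower genes of large size, was at 27.5, 23.6 and 22.3 TPM in KDSR KO and 40.5, 32.5 and 31.7 TPM in CTRL. CTRL replicate 1 was the highest library. Without it the difference in CTXN1 was -0.38 in place of -0.49.

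Sterol genes held a run of small, lower values. Of 25 genes of cholesterol synthesis, uptake and sensing tested, 11 (44%) lay wholly below CTRL and 1 (4%) wholly above, against 10.1% and 6.81% of all genes; none was called. The list's median log2 difference was -0.06, against 0.02 over all genes. Without CTRL replicate 1 the counts were 16 lower and 1 higher, against 17.4% and 8.88% of all genes, and with the GC trend removed they were 13 lower and 1 higher, against 7.58% and 7.13%. The median GC content of the list was 51.6%, against 48.5% over all genes. TM7SF2, a sterol C14 reductase, was at 48.4, 48.6 and 46.9 TPM in KDSR KO and 63.4, 60.3 and 57.4 TPM in CTRL. DHCR7, which makes cholesterol from its last precursor, was at 479, 468 and 476 TPM in KDSR KO and 617, 584 and 562 TPM in CTRL. A clear gap separated the groups in both. The log2 difference was -0.32 (-0.52 to -0.13) for TM7SF2 and -0.31 (-0.50 to -0.11) for DHCR7, with limma adjusted p of 0.318 and 0.351, and -0.29 and -0.27 without CTRL replicate 1. Lanosterol synthase LSS differed by -0.19 and MVD, the mevalonate decarboxylase, by -0.23 on the log2 scale, both without overlap. HMGCS1, which opens the mevalonate pathway, and INSIG1, a sterol sensor of the endoplasmic reticulum, overlapped between the groups only with CTRL replicate 1 included, and both lay wholly lower without it. HMGCS1 was at 490, 522 and 506 TPM in KDSR KO and 403, 524 and 536 TPM in CTRL, and its difference of 0.06 changed sign to -0.07 without CTRL replicate 1. INSIG1 was at 194, 200 and 197 TPM in KDSR KO and 200, 231 and 225 TPM in CTRL, a difference of -0.15 with that library and -0.21 without it, and it was also wholly lower with the GC trend removed.

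Genes of fatty acid synthesis also held more lower than higher members. Of 21 genes of fatty acid and triglyceride synthesis, 8 (38.1%) lay wholly lower and 1 (4.76%) wholly higher, against 10.1% and 6.81% of all genes, with a median log2 difference of -0.08. Without CTRL replicate 1 the counts were 11 lower and 1 higher, against 17.4% and 8.88% of all genes. Removal of the GC trend left 5 lower and 0 higher, against 7.58% and 7.13%, and the median was then -0.04. The median GC content of the list was 53.2%, against 48.5% over all genes. FADS2, the delta-6 desaturase, was at 415, 421 and 433 TPM in KDSR KO and 543, 520 and 490 TPM in CTRL. FASN, fatty acid synthase, was at 721, 694 and 655 TPM in KDSR KO and 882, 787 and 803 TPM in CTRL. Both had CTRL replicate 1 as the highest library and no overlap. The log2 differences were -0.29 (-0.46 to -0.11) for FADS2 and -0.25 (-0.47 to -0.04) for FASN, and -0.25 and -0.20 without that library. With the GC trend removed they were -0.22 and -0.13. ACSS2, which makes acetyl-CoA from acetate, differed by -0.23 and ACLY, which makes it from citrate, by -0.09. SCD, the stearoyl-CoA desaturase, was at 2394, 2447 and 2350 TPM in KDSR KO and 2404, 2698 and 2659 TPM in CTRL, and the groups overlapped through CTRL replicate 1 alone. SCD differed by -0.11 with that library and by -0.16 without it, and it was wholly lower without it and with the GC trend removed. Among 23 genes of fatty acid oxidation and PPARA targets, 2 were wholly higher and 3 wholly lower. PLIN2, a coat protein of lipid droplets, was at 250, 258 and 260 TPM in KDSR KO and 217, 240 and 231 TPM in CTRL, a difference of 0.16 (0.03 to 0.28). FABP1, the liver fatty acid binding protein, was at 55.3, 51.0 and 55.5 TPM in KDSR KO and 71.9, 62.0 and 59.2 TPM in CTRL, a difference of -0.25 (-0.42 to -0.08).

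**Figure D3:**
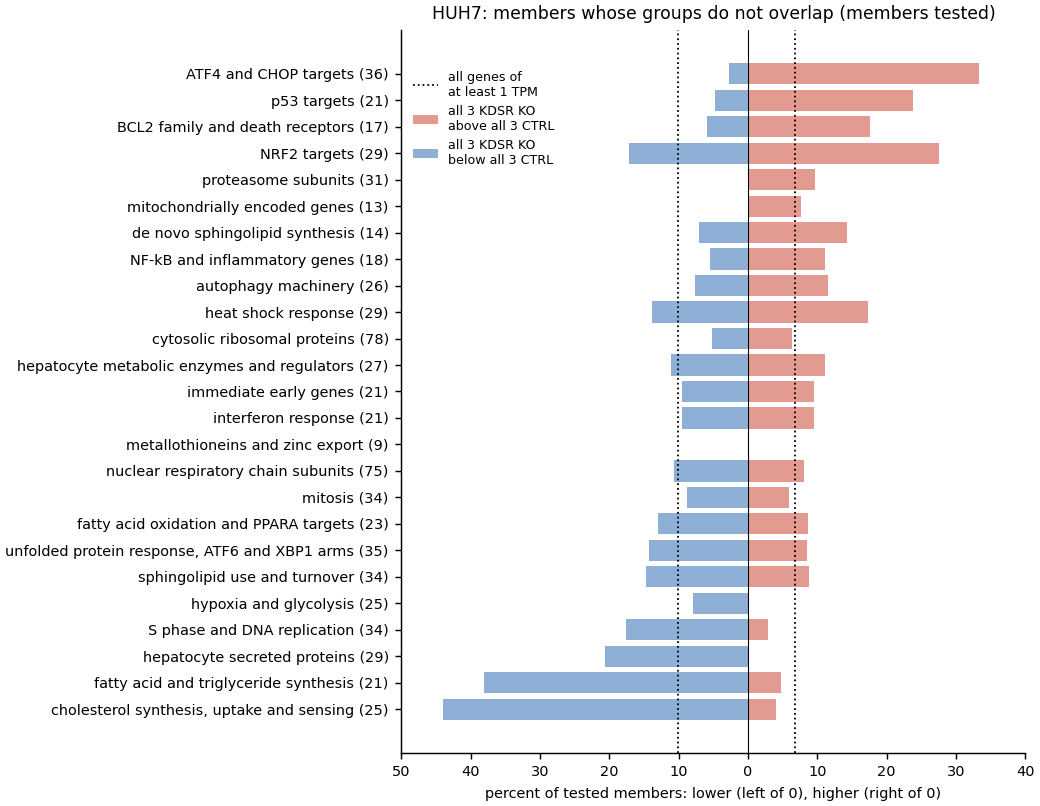
Percent of the tested members of each gene list whose KDSR KO and CTRL values do not overlap in HUH7, lower to the left of 0 and higher to the right, with the number of members tested in brackets and the shares over all tested genes as dotted lines (10.1% lower, 6.81% higher). Cholesterol synthesis reaches 44% lower and ATF4 and CHOP targets 33.3% higher, while heat shock and unfolded protein response genes are found on both sides.

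The targets of ATF4 and CHOP held the largest share of wholly higher genes among the 25 lists apart from markers. Of 36 tested, 12 (33.3%) lay wholly above CTRL and 1 (2.78%) wholly below, against 6.81% and 10.1% of all genes, and none was called. The median log2 difference was 0.08 over the list and 0.02 over all genes. Without CTRL replicate 1 the counts were 14 higher and 3 lower, against 8.88% and 17.4% of all genes. The median was then 0.04, against -0.02 over all genes. With the GC trend removed the counts were 12 higher and 0 lower, against 7.13% and 7.58% of all genes. DDIT3, the transcription factor CHOP, was at 34.3, 38.04 and 33.9 TPM in KDSR KO and 27.3, 29.7 and 30.3 TPM in CTRL. All KDSR KO libraries lay above all CTRL libraries. The log2 difference of DDIT3 was 0.27 (0.14 to 0.41; limma, adjusted p = 0.245), 0.23 without CTRL replicate 1 and 0.27 with the GC trend removed. ATF3, a stress-induced partner of CHOP, was at 9.64, 10.0 and 11.2 TPM in KDSR KO and 9.61, 9.61 and 9.15 TPM in CTRL. KDSR KO replicate 1 was almost level with the CTRL libraries, and the difference was 0.11 (-0.03 to 0.24). STC2, a secreted glycoprotein induced by ATF4, differed by 0.14 (0.02 to 0.25). PPP1R15A, which directs dephosphorylation of eIF2alpha, was at 76.9, 74.3 and 68.9 TPM in KDSR KO and 71.4, 64.0 and 63.7 TPM in CTRL, and its groups overlapped through KDSR KO replicate 3 and CTRL replicate 1. Without that library PPP1R15A was wholly higher, by 0.20 in place of 0.14. The mitochondrial folate enzyme MTHFD2 was at 60.5, 68.0 and 62.9 TPM in KDSR KO and 40.1, 59.5 and 55.7 TPM in CTRL. The cystine carrier SLC7A11 was at 18.1, 16.9 and 14.6 TPM in KDSR KO and 9.55, 13.9 and 13.9 TPM in CTRL. CTRL replicate 1 was the lowest library in both, and the differences were 0.32 and 0.40 with it, and 0.15 and 0.23 without it.

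ATF4 itself and 2 of its best known targets differed little. ATF4 was at 962, 951 and 948 TPM in KDSR KO and 960, 955 and 926 TPM in CTRL, a log2 difference of 0.01 (-0.07 to 0.10). TRIB3, a pseudokinase induced by CHOP, was at 247, 263 and 266 TPM in KDSR KO and 257, 263 and 253 TPM in CTRL, a difference of 0.01 (-0.15 to 0.17). CHAC1, which breaks down glutathione, was at 35.6, 38.6 and 42.7 TPM in KDSR KO and 43.1, 38.6 and 34.5 TPM in CTRL, with values crossing in both directions and a difference of 0.01 (-0.19 to 0.21), which was 0.09 without CTRL replicate 1. With the GC trend removed ATF4 was wholly higher, by 0.06, while TRIB3 and CHAC1 still overlapped. The CHAC1 promoter is shown because it carries letters that ATF4 is known to read. The 250 bases before the RefSeq start of CHAC1 (GRCh38.p14, chr15:40953221-40953470, plus strand) hold TTGCATCA, which is TGATGNAA read on the other strand, in capitals; this motif was found on either strand in 3.14% of 35116 such windows of all genes.
CHAC1: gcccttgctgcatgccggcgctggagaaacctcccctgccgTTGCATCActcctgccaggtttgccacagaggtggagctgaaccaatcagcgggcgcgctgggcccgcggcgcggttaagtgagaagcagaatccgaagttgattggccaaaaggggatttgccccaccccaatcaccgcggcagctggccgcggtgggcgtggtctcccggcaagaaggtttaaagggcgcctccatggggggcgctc

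NRF2 targets held more wholly higher genes than the background. Of 29 tested, 8 (27.6%) lay wholly higher and 5 (17.2%) wholly lower, against 6.81% and 10.1% of all genes, and the median log2 difference was 0.07. The counts were 8 and 6 without CTRL replicate 1, against 8.88% and 17.4% of all genes, and 8 and 1 with the GC trend removed, against 7.13% and 7.58%. Besides AKR1B10, the thioredoxin reductase TXNRD1 was higher, at 294, 294 and 303 TPM in KDSR KO and 216, 266 and 274 TPM in CTRL. The difference in TXNRD1 was 0.24 (0.08 to 0.41) and 0.14 without CTRL replicate 1, the lowest library. GCLM, a subunit of the enzyme that limits glutathione synthesis, was at 117, 120 and 123 TPM in KDSR KO and 79.2, 111 and 111 TPM in CTRL, where only CTRL replicate 1 was far below the KDSR KO libraries. The GCLM difference was 0.27 with that library and 0.11 without it. NQO1, a quinone reductase, was at 558, 544 and 558 TPM in KDSR KO and 458, 532 and 535 TPM in CTRL, a difference of 0.13 (-0.03 to 0.28) that was 0.05 without CTRL replicate 1. On the lower side, sulfiredoxin SRXN1 was at 8.02, 8.30 and 8.46 TPM in KDSR KO and 9.81, 9.15 and 8.79 TPM in CTRL. HMOX1, heme oxygenase, was at 13.5, 15.4 and 17.1 TPM in KDSR KO and 16.6, 13.4 and 16.5 TPM in CTRL, with interleaved values and a difference of -0.02 (-0.26 to 0.23). FTL, the ferritin light chain and one of the most abundant transcripts of these cells, was at 15639, 15862 and 15994 TPM in KDSR KO and 16072, 16448 and 15563 TPM in CTRL, a difference of -0.02 (-0.15 to 0.11). The promoter of TXNRD1 is given as that of an NRF2 target with a small, higher level. One of its 2 RefSeq windows (GRCh38.p14, chr12:104286782-104287031, plus strand) holds TGCTTTGTCA, the other strand of the antioxidant motif (TGAC, any 3 bases, GCA), in capitals; 2.59% of all windows hold that motif on either strand.
TXNRD1: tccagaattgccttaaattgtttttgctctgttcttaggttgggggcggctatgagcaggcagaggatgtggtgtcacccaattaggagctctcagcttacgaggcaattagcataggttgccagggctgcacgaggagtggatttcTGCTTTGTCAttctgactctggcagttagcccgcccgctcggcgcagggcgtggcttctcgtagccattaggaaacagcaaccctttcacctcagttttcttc

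The cytosolic heat shock response showed no common direction. Of 29 genes tested, 5 (17.2%) lay wholly higher and 4 (13.8%) wholly lower, against 6.81% and 10.1% of all genes. The median log2 difference was 0.04. In 26 (89.7%) the 95% interval was within 0.5 of 0, against 77.1% of all genes. That share does not set the list apart, as it was 92% for cholesterol genes and 88.9% for ATF4 and CHOP targets. Without CTRL replicate 1 the median of the heat shock list was -0.02, as over all genes. The counts were then 5 higher and 7 lower, against 8.88% and 17.4% of all genes. HSPA1A and HSPA1B are near-identical copies of inducible HSP70, and the sources used here do not say how their shared reads were divided. HSPA1B was at 61.5, 65.7 and 56.4 TPM in KDSR KO and 63.5, 63.5 and 58.8 TPM in CTRL, fully interleaved, with a difference of -0.02 (-0.23 to 0.19). HSPA1A was at 133, 140 and 121 TPM in KDSR KO and 170, 148 and 154 TPM in CTRL, lower in each KDSR KO library by a log2 difference of -0.26 (-0.53 to 0.00). HSPA8, the constitutive HSP70, was at 2153, 2210 and 2275 TPM in KDSR KO and 2146, 2289 and 2322 TPM in CTRL. Its interval was narrow, at -0.02 (-0.10 to 0.05). DNAJB1, an HSP40 co-chaperone that HSF1 induces, was at 213, 220 and 225 TPM in KDSR KO and 225, 229 and 235 TPM in CTRL, a difference of -0.06 (-0.17 to 0.04). Both HSPA8 and DNAJB1 were wholly lower without CTRL replicate 1, at -0.06 and -0.08. BAG3, a nucleotide exchange factor of HSP70, differed by -0.17 (-0.31 to -0.03), with KDSR KO replicate 3 above CTRL replicate 3. STIP1, which links HSP70 to HSP90, was wholly lower, at 251, 259 and 262 TPM in KDSR KO and 283, 295 and 287 TPM in CTRL. The STIP1 difference was -0.17 (-0.25 to -0.08; limma, adjusted p = 0.312) and -0.18 without CTRL replicate 1. DNAJA4, another HSP40, was wholly higher by 0.18 (0.02 to 0.33). The HSPA1B promoter is shown for the site on which HSF1 is known to act. The 250 bases before its start (GRCh38.p14, chr6:31827488-31827737, plus strand) hold the heat shock letters GAANNTTC, in capitals, which 5.78% of all windows hold.
HSPA1B: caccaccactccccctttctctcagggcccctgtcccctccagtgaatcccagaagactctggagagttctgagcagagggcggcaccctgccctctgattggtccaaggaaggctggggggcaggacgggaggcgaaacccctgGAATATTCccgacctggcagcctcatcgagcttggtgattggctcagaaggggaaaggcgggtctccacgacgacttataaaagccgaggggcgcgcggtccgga

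Unfolded protein response genes under ATF6 or XBP1 differed little. Of 35 genes tested, 3 (8.57%) lay wholly higher and 5 (14.3%) wholly lower, against 6.81% and 10.1% of all genes. The median log2 difference was 0.06, against 0.02 over all genes. Without CTRL replicate 1 it was -0.004, against -0.02 over all genes. An interval within 0.5 of 0 was found in 34 (97.1%), against 77.1% of all genes. That share was also 92% for cholesterol genes and 100% for fatty acid and triglyceride synthesis, so it does not set this list apart. The counts of the unfolded protein response list were 4 and 6 without CTRL replicate 1, against 8.88% and 17.4% of all genes. They were 4 and 3 with the GC trend removed, against 7.13% and 7.58%. HSPA5, the chaperone BiP of the endoplasmic reticulum, was at 1021, 1095 and 1055 TPM in KDSR KO and 886, 1045 and 992 TPM in CTRL. CTRL replicate 1 was the lowest and CTRL replicate 2 lay among the KDSR KO libraries. Its log2 difference was 0.12 (-0.00 to 0.24), and 0.05 without CTRL replicate 1. HERPUD1, which serves the disposal of misfolded proteins, was at 56.6, 55.7 and 58.5 TPM in KDSR KO and 52.9, 56.2 and 54.2 TPM in CTRL, a difference of 0.06 (-0.04 to 0.16). XBP1, the transcription factor of the IRE1 arm, was at 679, 688 and 702 TPM in KDSR KO and 670, 719 and 660 TPM in CTRL, a difference of 0.02 (-0.08 to 0.11); its splicing cannot be read from gene levels. SELENOS, a selenoprotein of the same disposal route, was wholly higher, at 34.9, 35.4 and 36.7 TPM in KDSR KO and 31.5, 33.03 and 30.7 TPM in CTRL. The SELENOS difference was 0.16 (0.07 to 0.25) and 0.16 without CTRL replicate 1. HYOU1, a chaperone that helps BiP, was wholly lower, with a log2 difference of -0.15, as was the disulfide isomerase PDIA4, with -0.11. HSPA13 was higher by 0.35, and by 0.14 without CTRL replicate 1. The HSPA5 promoter is shown because it carries the full ER stress element. The 250 bases before its start (GRCh38.p14, chr9:125241344-125241593, minus strand) hold CCAAT and CCACG with 9 bases between them, in capitals, which 26 of the 35116 windows hold. The printed matches overlapped no match of the other motifs searched, and a match describes letters, not binding.
HSPA5: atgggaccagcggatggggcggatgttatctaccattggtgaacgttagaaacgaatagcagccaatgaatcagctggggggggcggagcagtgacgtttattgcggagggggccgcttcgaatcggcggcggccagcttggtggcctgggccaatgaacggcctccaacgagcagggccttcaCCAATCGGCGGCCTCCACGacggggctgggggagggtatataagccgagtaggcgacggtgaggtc

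**Figure D4:**
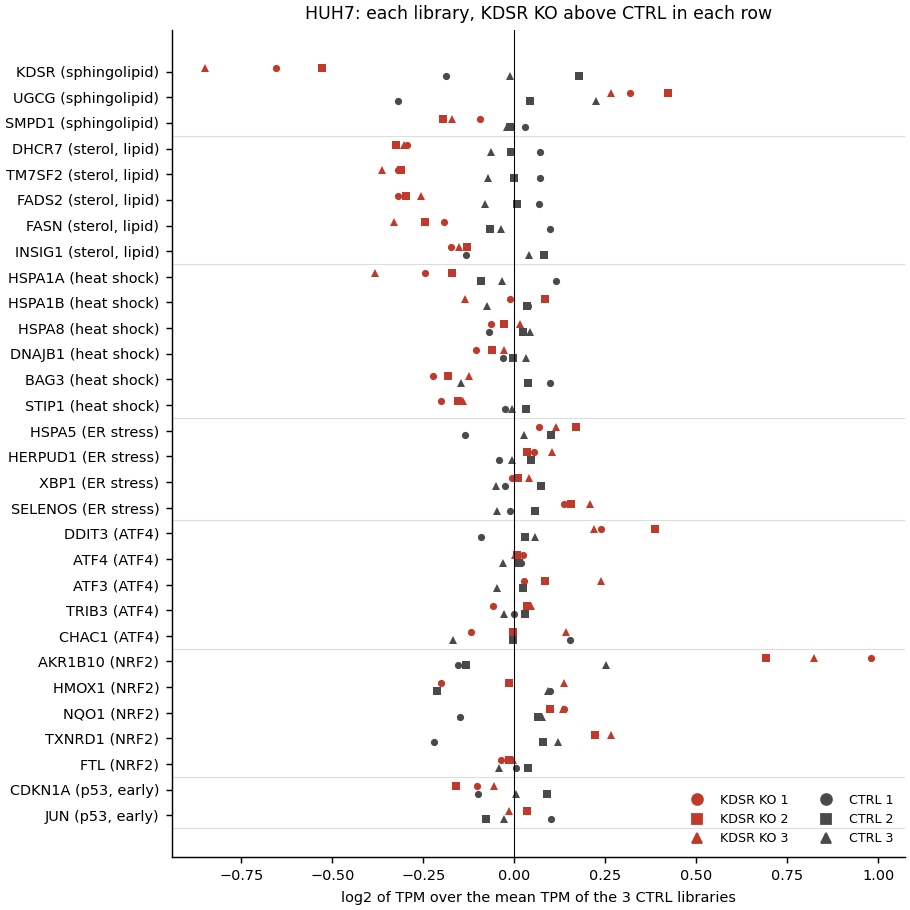
TPM of each HUH7 library over the mean of the 3 CTRL libraries on the log2 scale (horizontal axis) for 30 genes (rows), KDSR KO in red above CTRL in grey, with the replicate number given by the shape of the point. AKR1B10, DDIT3, DHCR7, TM7SF2 and STIP1 show a gap between the groups, while HSPA1B, ATF4, CHAC1, HMOX1 and JUN are interleaved.

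Among the p53 targets more genes were wholly higher than in the background. Of 21 tested, 5 (23.8%) lay wholly higher and 1 (4.76%) wholly lower, against 6.81% and 10.1% of all genes. The counts were 5 and 3 without CTRL replicate 1, against 8.88% and 17.4%, and 5 and 1 with the GC trend removed, against 7.13% and 7.58%. CDKN1A, the cell cycle inhibitor p21, was at 11.9, 11.4 and 12.3 TPM in KDSR KO and 11.9, 13.6 and 12.8 TPM in CTRL, a difference of -0.10 (-0.27 to 0.07) with overlapping groups. CDKN1A was wholly lower once CTRL replicate 1 was left out, at -0.14. MDM2, the ligase that degrades p53, differed by 0.18 (-0.01 to 0.38), and by 0.07 without CTRL replicate 1. GDF15, a secreted stress cytokine also listed with ATF4, was at 215, 217 and 221 TPM in KDSR KO and 203, 175 and 185 TPM in CTRL, a difference of 0.22 whose interval (-0.15 to 0.58) was wide. Of 31 proteasome subunits, 3 (9.68%) were wholly higher and 0 wholly lower, and without CTRL replicate 1 the counts were 3 and 3. PSMC4 was at 443, 443 and 453 TPM in KDSR KO and 469, 482 and 450 TPM in CTRL, and PSMD12 differed by 0.23 with all libraries and by 0.08 without CTRL replicate 1. Of 9 genes of metallothioneins and zinc export, none was wholly higher or lower. Of 25 genes of hypoxia and glycolysis, 0 were wholly higher and 2 wholly lower: GPI, glucose phosphate isomerase, at 133, 138 and 137 TPM in KDSR KO and 149, 158 and 151 TPM in CTRL, and PFKFB4, a regulator of glycolysis, at 11.1, 12.8 and 12.3 TPM in KDSR KO and 14.7, 15.9 and 13.5 TPM in CTRL. Of 26 autophagy genes, 3 (11.5%) were wholly higher and 2 (7.69%) wholly lower. The counts were 1 higher and 5 lower for hypoxia and glycolysis, and 3 higher and 4 lower for autophagy, without CTRL replicate 1.

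Early response, inflammatory and interferon genes gave counts of 2 wholly higher each, at 9.52%, 11.1% and 9.52% of their lists, against 6.81% of all genes. Wholly lower genes made up 10.1% of all genes. Of 21 immediate early genes, 2 were wholly lower, and JUN, a subunit of AP-1, was at 145, 146 and 141 TPM in KDSR KO and 152, 135 and 139 TPM in CTRL, a difference of 0.02 (-0.16 to 0.20) with all libraries and 0.07, without overlap, when CTRL replicate 1 was left out. EGR1 was at 8.40, 5.32 and 6.05 TPM in KDSR KO and 8.74, 7.04 and 8.52 TPM in CTRL, with overlapping groups. Of 18 NF-kB and inflammatory genes, 1 was wholly lower, and the chemokine CXCL8 differed by 0.26 (-0.10 to 0.61) with all libraries and 0.07 without CTRL replicate 1. Of 21 interferon response genes, 2 were wholly lower. DDX58, the RNA sensor RIG-I, was at 7.50, 6.55 and 6.96 TPM in KDSR KO and 4.61, 6.03 and 5.63 TPM in CTRL, and IFITM2, an antiviral membrane protein, was at 22.9, 20.6 and 22.9 TPM in KDSR KO and 31.4, 28.4 and 25.7 TPM in CTRL. These ran in opposite directions, by 0.32 (0.12 to 0.52) and -0.35 (-0.52 to -0.17). Of 17 genes of the BCL2 family and death receptors, 3 (17.6%) were wholly higher and 1 (5.88%) wholly lower. Leaving out CTRL replicate 1 gave 4 higher and 4 lower for immediate early genes, 2 and 1 for NF-kB and inflammatory genes, 2 and 5 for interferon response genes and 3 and 2 for the BCL2 family, against 8.88% and 17.4% of all genes.

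Hepatocyte identity and growth genes showed small differences. ALB was at 6224, 5965 and 6109 TPM in KDSR KO and 5432, 6335 and 6121 TPM in CTRL, with interleaved values. Of 29 secreted hepatocyte proteins, 0 were wholly higher and 6 (20.7%) wholly lower, against 6.81% and 10.1% of all genes. The counts were 0 and 6 without CTRL replicate 1, against 8.88% and 17.4% of all genes. They were 2 and 1 with the GC trend removed, against 7.13% and 7.58%. SERPINA1, alpha-1 antitrypsin, was at 1948, 1849 and 2030 TPM in KDSR KO and 2518, 2225 and 2106 TPM in CTRL, and APOA1, the main protein of HDL, at 197, 171 and 198 TPM in KDSR KO and 217, 200 and 201 TPM in CTRL. Among 27 metabolic enzymes and regulators, 3 (11.1%) were wholly higher and 3 (11.1%) wholly lower, against 6.81% and 10.1% of all genes. Without CTRL replicate 1 these were 5 and 4, against 8.88% and 17.4%. With the GC trend removed they were 3 and 1, against 7.13% and 7.58%. HNF4A, a nuclear receptor that maintains hepatocyte identity, differed by -0.10 (-0.22 to 0.03) and FOXA3, a pioneer factor of liver, by -0.25 (-0.47 to -0.03). CTRL replicate 1 was the highest library for FOXA3, whose difference was -0.17 without it and -0.15 with the GC trend removed. Of 6 intestinal markers tested, 1 was wholly higher and 0 wholly lower. That one was MUC13, a mucin, at 15.8, 14.2 and 14.96 TPM in KDSR KO and 9.77, 12.6 and 11.8 TPM in CTRL, while the more abundant villin gene VIL1 averaged 109 TPM in KDSR KO and 111 TPM in CTRL. Of 34 genes of S phase, 1 (2.94%) was wholly higher and 6 (17.6%) wholly lower, against 6.81% and 10.1% of all genes. Without CTRL replicate 1 the counts were 1 higher and 16 lower, against 8.88% and 17.4% of all genes, and with the GC trend removed they were 1 and 8, against 7.13% and 7.58%. MCM7, of the replicative helicase, was at 449, 477 and 461 TPM in KDSR KO and 527, 524 and 504 TPM in CTRL, a difference of -0.17 (-0.27 to -0.06) and -0.15 without CTRL replicate 1. Of 34 genes of mitosis, 2 (5.88%) were wholly higher and 3 (8.82%) wholly lower, and the counts were 2 and 6 without CTRL replicate 1. PLK1, a mitotic kinase, differed by -0.20 (-0.33 to -0.06), while CDK1, which drives entry into mitosis, differed by 0.27 with CTRL replicate 1 and by 0.11 without it. Cytosolic ribosomal proteins had 5 of 78 (6.41%) wholly higher and 4 (5.13%) wholly lower. Nuclear subunits of the respiratory chain had 6 (8%) and 8 (10.7%) of 75, against 6.81% and 10.1% of all genes. Of the 13 protein genes encoded in mitochondria, 1 was wholly higher and 0 wholly lower, and their median log2 difference was 0.08 with CTRL replicate 1 and 0.34 without it.

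The log2 differences were spread least in HUH7 among the 3 lines. Over the 12558 genes tested in all of them, 95% of the absolute log2 differences were under 0.359 in HUH7, against 0.510 in DLD1 and 0.781 in NCIH838. Limma called 17.3% of genes tested in DLD1 and 42.5% in NCIH838. The difference itself was tested as the effect in HUH7 minus the effect in the other line. Against DLD1, 350 genes differed (2.79%), with the HUH7 effect higher in 131 (1.04%) and lower in 219 (1.74%). Against NCIH838, 4237 genes differed (33.7%), 2709 higher (21.6%) and 1528 lower (12.2%). The number against DLD1 was 194 without HUH7 KDSR KO replicate 2 and 1223 with the GC trend removed. Both differences share the HUH7 libraries, and NCIH838 was collected later, so line and day cannot be told apart there.

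Heat shock and ER stress genes were among those whose effect differed. Of 27 heat shock genes tested in all lines, the effect was lower in HUH7 in 16 against DLD1 and in 17 against NCIH838, and higher in 0. Over all genes the effect in HUH7 was lower in 1.74% and higher in 1.04% against DLD1. Against NCIH838 it was lower in 12.2% and higher in 21.6% of all genes. The counts of the lists below have these same shares beside them. HSPA1B averaged 61.2 ± 4.69 TPM in HUH7 KDSR KO and 61.9 ± 2.69 TPM in HUH7 CTRL, 1446 ± 59.3 and 138 ± 10.6 TPM in DLD1 KDSR KO and CTRL, and 960 ± 145 and 51.3 ± 5.35 TPM in NCIH838 KDSR KO and CTRL (SD, n = 3 each). The log2 effect in HUH7 minus that in DLD1 was -3.40 (limma, adjusted p = 1.63e-09), and minus that in NCIH838 it was -4.21 (adjusted p = 1.43e-10). Of 35 genes of the unfolded protein response, the effect was lower in HUH7 in 8 against DLD1 and 22 against NCIH838, and higher in 0. HSPA5 averaged 1057 ± 37.0 TPM in HUH7 KDSR KO and 974 ± 80.8 TPM in HUH7 CTRL, against 1908 ± 38.1 and 857 ± 49.6 TPM in DLD1 KDSR KO and CTRL, and the HUH7 effect minus the DLD1 effect was -1.03 (limma, adjusted p = 1.5e-06). Of 34 ATF4 and CHOP targets, 9 were lower and 0 higher against DLD1, and 14 lower and 4 higher against NCIH838. DDIT3, which did not overlap between the HUH7 groups, had a smaller effect there than in the other lines, by -1.58 against DLD1 (limma, adjusted p = 2.94e-08) and -0.71 against NCIH838 (adjusted p = 4.18e-05). Of 31 proteasome subunits, 7 and 21 were lower in HUH7 in the same comparisons. Of 25 cholesterol genes, the effect in HUH7 was higher in 9 and lower in 0 against DLD1. Against NCIH838 it was higher in 11 and lower in 1. A higher effect here can be a smaller fall. INSIG1 differed by -0.15 in HUH7 and by -0.78 in DLD1, while HMGCS1 differed by 0.06 in HUH7 and by -0.62 in DLD1. For KDSR itself the HUH7 effect minus the DLD1 effect was 0.05 (interval -0.23 to 0.33; limma, adjusted p = 0.88), and minus the NCIH838 effect it was -0.50 (adjusted p = 0.0105).

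**Figure D5:**
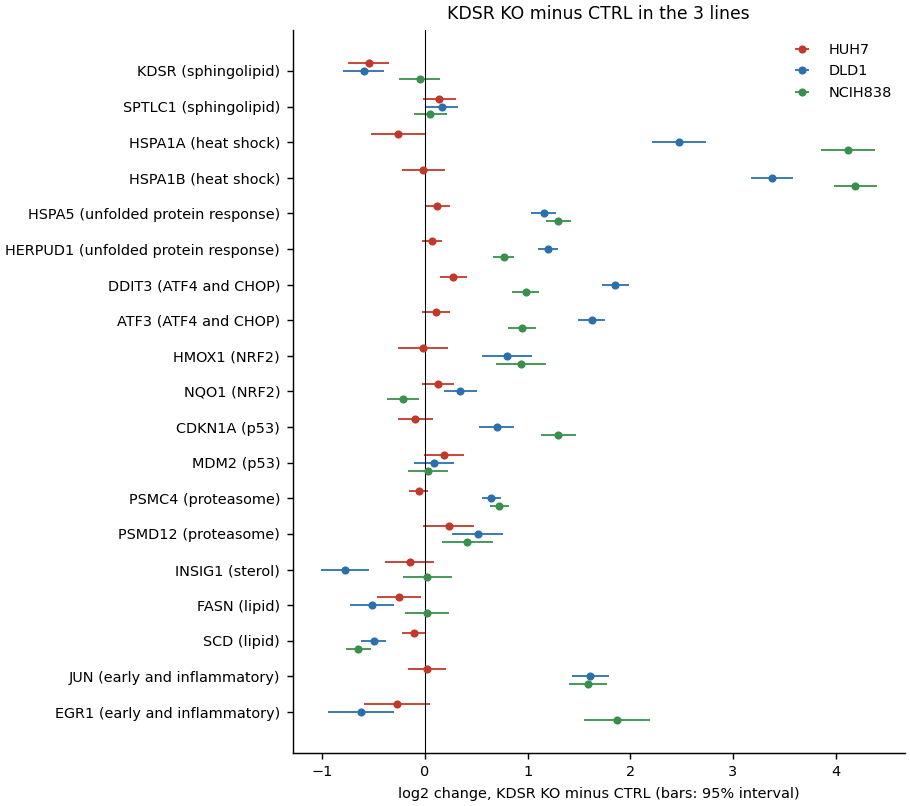
Log2 change, KDSR KO minus CTRL (horizontal axis), with its 95% limma interval, for 19 genes (rows, programme in brackets) in HUH7 (red), DLD1 (blue) and NCIH838 (green). In HUH7 the points lie between -0.55 and 0.27, while HSPA1B is at 3.38 in DLD1 and 4.19 in NCIH838.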

How the data were processed

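RNA of 18 cell line cultures was sequenced, with 6 HUH7 libraries in the comparisons here. The authors deposited TPM values for 27166 genes. Counting used featureCounts 2.0.0 and the build was hg38, per the submitters' processing notes, while the aligner and the rule for multi-mapped reads are not given in the sources used here. All identifiers were found in GENCODE 29, which gave gene coordinates and GC content. Table columns were joined to libraries through the sample numbers in the labels, with 0 value columns left unmapped. Multiplying TPM by the deposited gene length and dividing by the smallest such product of a library returned whole numbers, within 0.01, for 100% of values; these recovered reads give the depth (19423417 to 20385767 in HUH7) and rest on that smallest product being 1 read.

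Levels were taken as log2(TPM + 1), which pulls differences of low genes toward 0, and modelled in R 4.3.3 by limma 3.58.1 with 1 mean per group and the trend and robust options of eBayes, on 18 libraries and 19869 genes of at least 1 TPM in a line, with 12 residual degrees of freedom. P-values were adjusted by Benjamini-Hochberg over the 16104 genes of HUH7, and over the 12558 genes tested in all lines for differences between lines. Intervals are the fit's 95% intervals and use the spread over all lines. Called means an adjusted p under 0.05. The fit was also run on simulated data with known changes. Those data held no GC trend and no library that stood apart, so they cannot show how the fit handles CTRL replicate 1. Replicates differed by more than sampling noise, and none were merged. Removal of the GC trend used a local regression of each library's deviation on GC content (span 0.3).

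The 30 gene lists (5 of them markers), the genes to name and the comparisons were chosen with earlier results of these data known, so a list's direction is a description and was not tested; 16 listed genes have no value here and 57 more, under 1 TPM in HUH7, were not tested. Some genes that the naming rule picks are not reported here. Named genes were anchors and members of de novo sphingolipid synthesis, up to 12 largest differences each way and the 10 smallest p-values among genes of at least 5 TPM, passing over clone, antisense and pseudogene names, and up to 4 members of each list. Differences between lines are given for the first 2 anchors of each programme that were tested in all lines. Promoter windows are from RefSeq (GRCh38.p14). The 4 genes shown were chosen together with their motif, and only a window that holds the motif was printed. A match in these 4 was therefore fixed in advance and is no hit rate. The 17 alternatives were a pseudocount of 0.1, no filter, a filter at 5 TPM, quantile normalization, median ratio scaling over genes reaching 10 TPM, omission of mitochondrially encoded genes, HUH7 alone, plain eBayes, limma voom on recovered reads (which called 0 genes in HUH7), a replicate block, removal of the GC trend and leaving out each HUH7 library.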

Additional observations from a re-analysis of the deposited data

Results flagged for a closer look

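The effect of KDSR KO in HUH7 minus its effect in DLD1 or NCIH838 was tested by limma for 19 genes, 38 differences in all, and the 26 that passed an adjusted p under 0.05 are listed here on the log2 scale. A negative value means a lower effect in HUH7, and each is over 3 libraries per group. For HSPA1A, whose reads may be shared with HSPA1B, it was -2.74 against DLD1 (adjusted p = 1.48e-07) and -4.39 against NCIH838 (adjusted p = 1.11e-09). For HSPA1B, the other inducible HSP70, it was -3.40 against DLD1 (adjusted p = 1.63e-09) and -4.21 against NCIH838 (adjusted p = 1.43e-10). For HSPA5, the chaperone BiP, it was -1.03 against DLD1 (adjusted p = 1.5e-06) and -1.18 against NCIH838 (adjusted p = 1.35e-07). For HERPUD1, of protein disposal at the endoplasmic reticulum, it was -1.14 against DLD1 (adjusted p = 3.98e-08) and -0.70 against NCIH838 (adjusted p = 2.54e-06). For DDIT3, which encodes CHOP, it was -1.58 against DLD1 (adjusted p = 2.94e-08) and -0.71 against NCIH838 (adjusted p = 4.18e-05). For ATF3, its stress-induced partner, it was -1.52 against DLD1 (adjusted p = 5.03e-08) and -0.84 against NCIH838 (adjusted p = 1.02e-05).

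Genes of other programmes differed too. For JUN, of AP-1, it was -1.59 against DLD1 (adjusted p = 1.15e-06) and -1.57 against NCIH838 (adjusted p = 3.92e-07). For CDKN1A, which encodes p21, it was -0.80 against DLD1 (adjusted p = 0.000925) and -1.40 against NCIH838 (adjusted p = 6.17e-07). For HMOX1, heme oxygenase, it was -0.82 against DLD1 (adjusted p = 0.0121) and -0.95 against NCIH838 (adjusted p = 0.000553). For PSMC4, a proteasome ATPase, it was -0.71 against DLD1 (adjusted p = 4.15e-06) and -0.79 against NCIH838 (adjusted p = 3.86e-07). For SCD, the stearoyl-CoA desaturase, it was 0.39 against DLD1 (adjusted p = 0.0141) and 0.54 against NCIH838 (adjusted p = 0.000161). EGR1, an early response factor, differed from NCIH838 by -2.14 (adjusted p = 5.17e-06). NQO1, a quinone reductase, differed from NCIH838 by 0.34 (adjusted p = 0.0208). INSIG1, a sterol sensor, differed from DLD1 by 0.63 (adjusted p = 0.0463). KDSR, the targeted gene, differed from NCIH838 by -0.50 (adjusted p = 0.0105). The INSIG1 call was lost with no filter (adjusted p = 0.0696), plain eBayes (0.0696), a pseudocount of 0.1 (0.0512), quantile normalization (0.0549) and with any 1 HUH7 library left out (0.0552 to 0.105). The NQO1 call was lost without CTRL replicate 1 (adjusted p = 0.051). With 3 libraries per group, no single HUH7 library was tested as an outlier. NCIH838 was collected on day 10, so line and day cannot be told apart there. No explanation was tested.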

How the results depend on the processing

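KDSR was lower in KDSR KO in every alternative that gave it a value. It passed the threshold at -0.57 (median ratio scaling, adjusted p = 0.0366), -0.59 (quantile normalization, 0.0435) and -0.61 (GC trend removed, 0.0111), and lay between -0.63 and -0.47 with a library left out, where it passed in none. Its adjusted p over all alternatives ran from 0.0111 to 0.649, the highest with the 6 HUH7 libraries fitted alone. At 5 TPM the filter left KDSR out. Genes called numbered 2 under median ratio scaling and under quantile normalization, 3 with the GC trend removed, 7 with plain eBayes, 9 with no filter and 1 with the replicate block, against 0 in the fit reported. Leaving out a library gave 0 to 7 (0 without CTRL replicate 1, 6 and 7 without CTRL replicates 2 and 3, 3, 2 and 0 without KDSR KO replicates 1, 2 and 3). AKR1B10 passed with no filter (adjusted p = 0.0334), with plain eBayes (0.0367) and without CTRL replicate 3 (0.0102), and its adjusted p ranged from 0.0102 to 0.515 over all alternatives. F8A1 passed without CTRL replicate 3 (0.0409). Genes wholly higher numbered 1677 without mitochondrially encoded genes and 1430 to 2458 with a library left out; genes wholly lower numbered 2140 to 2797 with a library left out, when 2 libraries meet 3. Differences from DLD1 numbered 1223 with the GC trend removed, 211 with the replicate block and 194 to 447 with a library left out (194 without KDSR KO replicate 2); those from NCIH838 stayed within 1.5 times. Same-numbered HUH7 libraries deviated together with correlations of 0.182, 0.0647 and -0.123, so the replicate numbers are taken as names only; KDSR KO replicate 1 correlated best with its own number and the others did not. Differences close to 0 took the other sign in places, and the cause was not tested. Under limma voom this held for ATF4 (-0.012), CHAC1 (-0.0087), JUN (-0.0042), TRIB3 (-0.016), XBP1 (-0.0082) and KDSR against DLD1 (-0.10). Under median ratio scaling this held for ATF4 (-0.011), CHAC1 (-0.010), JUN (-0.0031), TRIB3 (-0.015), XBP1 (-0.0063) and KDSR against DLD1 (-0.011). Under a pseudocount of 0.1 this held for KDSR against DLD1 (-0.035). Under quantile normalization this held for ALB (-0.051), CHAC1 (-0.0044), HSPA8 (0.0041) and KDSR against DLD1 (-0.045). Under removal of the GC trend this held for ALB (-0.068), FTL (0.041), HMGCS1 (-0.039), HMOX1 (0.071), HSPA1B (0.060), XBP1 (-0.0029), KDSR against DLD1 (-0.043), SPTLC1 against NCIH838 (-0.12), MDM2 against DLD1 (-0.00011) and MDM2 against NCIH838 (-0.074). With a library left out, the ranges that crossed 0 were -0.030 to 0.081 for ALB, -0.0047 to 0.021 for ATF4, -0.067 to 0.089 for CHAC1, -0.0029 to 0.15 for DEGS1, -0.038 to 0.0014 for FTL, -0.067 to 0.14 for HMGCS1, -0.11 to 0.063 for HMOX1, -0.071 to 0.038 for HSPA1B, -0.019 to 0.069 for JUN, -0.012 to 0.040 for TRIB3, -0.0089 to 0.053 for XBP1, -0.027 to 0.13 for KDSR against DLD1, -0.089 to 0.010 for SPTLC1 against DLD1 and -0.017 to 0.20 for MDM2 against DLD1. Precision is limited by 3 libraries per group, by CTRL replicate 1 and, for low genes, by reads: KDSR had 156 to 306 per library.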
